A study of Mus musculus with 11 samples.

Results

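Heat-shock chaperones bind unfolded proteins, and the genes described here are 10 members of that system: the small heat-shock protein genes Cryab and Hspb1, the Hsp70 genes Hspa1a, Hspa1b and Hspa8, the Hsp90 genes Hsp90aa1 and Hsp90ab1, the co-chaperone genes Hsph1 and Dnajb1, and Hspa5 of the endoplasmic reticulum (ER). They were picked by symbol from 23282 entries per library, and all 10 were among the 6987 genes with enough counts to be tested. Cryab was selected on its difference between day 39 and day 0 in libraries labelled wild type, so its values in that comparison, in its average with the other genotype label, in the difference between the labels and between them at each day are a description, with no test. The other 9 genes were chosen as relatives of Cryab, and not by a threshold on their own values. Because each gene passed the filter on low counts, counts over the 10 describe these genes only.

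Small heat-shock proteins hold unfolding proteins in soluble complexes without using ATP. Hsp70 and Hsp90 then refold or mature client proteins in cycles of ATP hydrolysis that J-domain proteins such as Dnajb1 and exchange factors such as Hsph1 drive. The transcription factor Hsf1 induces many of these genes after heat, oxidative or proteotoxic stress, while Hspa8 and Hsp90ab1 are made in most cells at all times and Hspa5 answers to unfolded protein in the ER. Macrophages carry this system as other cells do, and Cryab is best known from lens, heart and skeletal muscle.

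The libraries were made from mouse colonic macrophages sorted as CD45+CD11b+Ly6G-Ly6C-MHCII+CD64+ cells. Wild-type mice (WT) were set beside mice of the strain Csf1r-EP4-/- (here KO), whose name combines the macrophage receptor gene Csf1r with the prostaglandin E2 receptor EP4, encoded by Ptger4. The treatment label is the same for all 11 libraries: dextran sodium sulphate (DSS), a polymer that injures the colon lining, at 2.5% in drinking water for 5 days. The question is how macrophages late in this colitis course differ from those at its start, and whether EP4 changes that. There were 3 KO and 2 WT libraries at day 0 and 3 of each at day 39. The labels give the strain only by its name, with no Cre line, floxed allele, deleted exon, age or sex, and do not say whether a library is 1 mouse or a pool. P-values therefore measure the spread between these libraries, which may be technical, and adjusted p-values below are from the edgeR quasi-likelihood test over all tested genes unless another tool is named.

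Library totals ran from 5982548 to 14207919 counts in KO at day 0 and from 4003299 to 5126194 in the other groups. Values below are deposited counts, or CPM, counts scaled to a TMM-adjusted library size of 1000000. Ptger4 did not follow the strain labels: at day 0 it had 1350, 0 and 890 counts in libraries labelled KO and 0 and 0 in those labelled WT, and at day 39 it had 1, 8 and 4501 in KO against 1481, 152 and 7286 in WT. A read near the 3′ end need not lie in the deleted part, and below, KO and WT name the labels only. Of the 15 macrophage markers, 8 had more than 10 counts in every library, among them H2-Aa, H2-Ab1 and C1qa with at least 26244, 12803 and 2605. Genes of the sort itself were less evenly detected: Fcgr1 (CD64) had 10 counts or fewer in 6 libraries, Ptprc (CD45) in 5 and Itgam (CD11b) in 4. Among all tested genes, 59.1% of the values per library were 10 counts or fewer, and the median coefficient of variation (CV) of CPM over libraries was 1.95.

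The 10 chaperone genes were detected more evenly than that. Of their 110 values, 14 (12.7%) were 10 counts or fewer, and their median CV was 0.812. Hspb1, Hspa1a, Hspa5, Hspa8, Hsp90aa1 and Hsp90ab1 had more than 10 counts in all 11 libraries, as did 348 of the 6987 tested genes. The gaps lay in Hsph1 (6 libraries), Cryab (4), Dnajb1 (3) and Hspa1b (1). The plot of CPM by library shows each value.

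**Figure D1:**
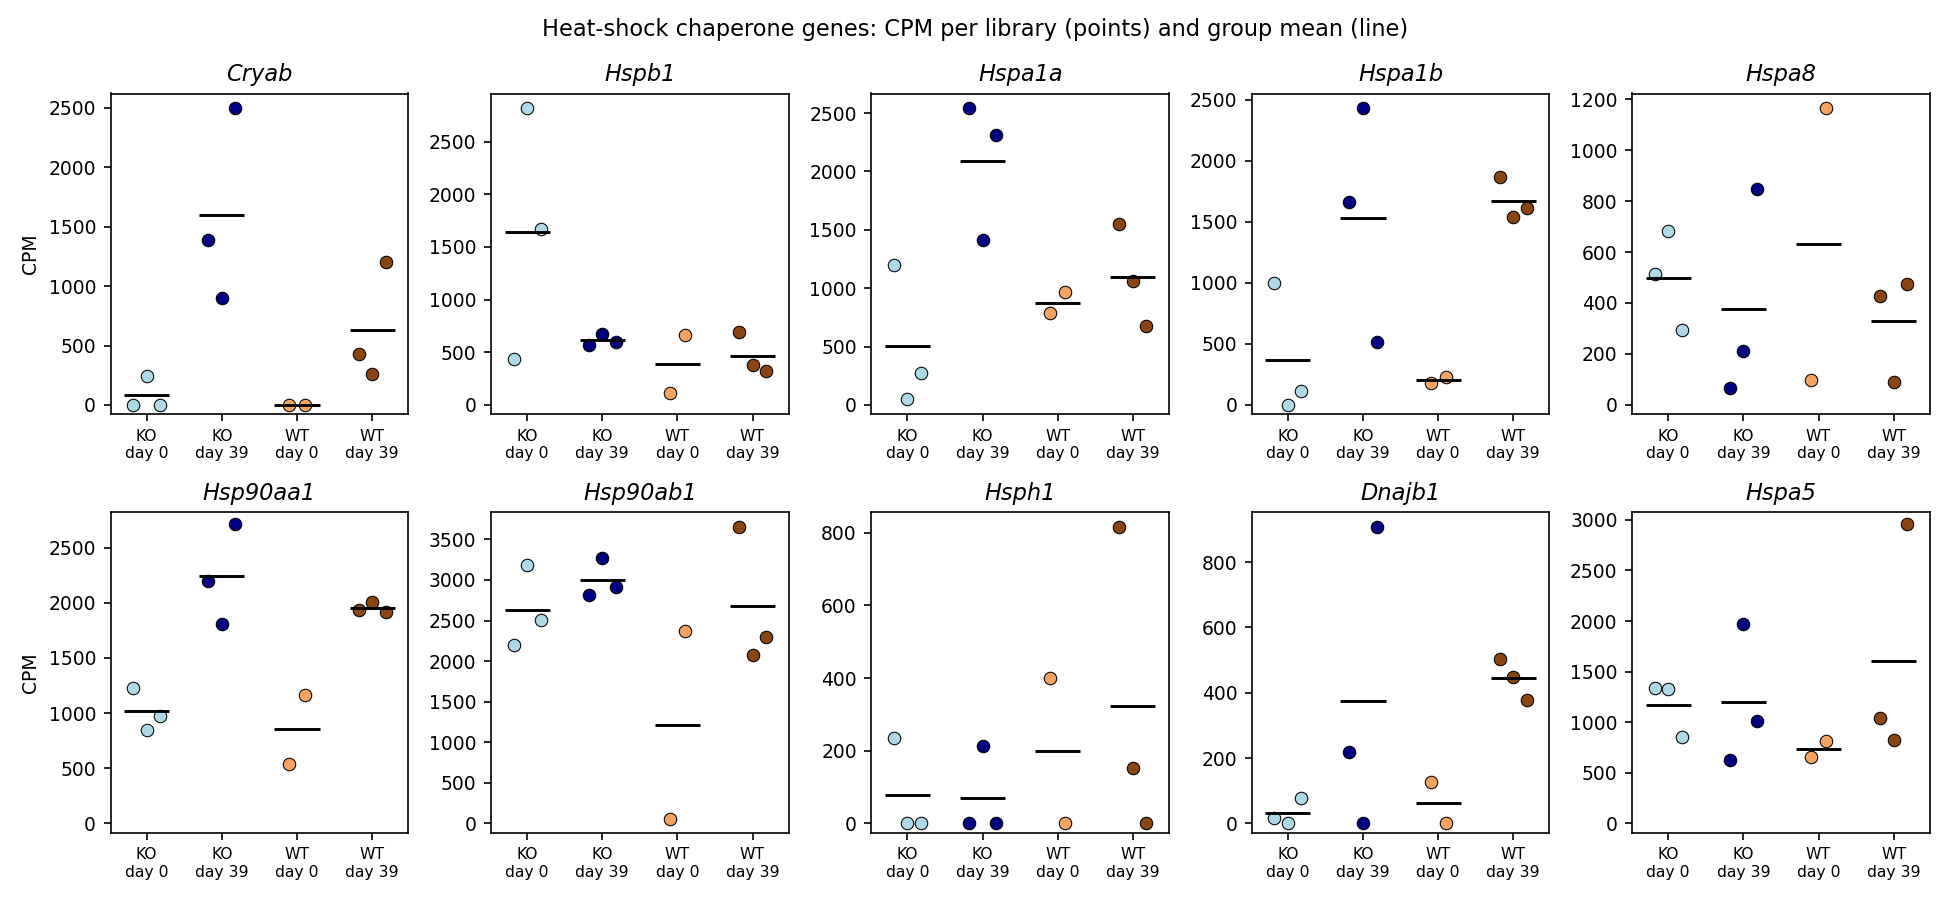
Each panel plots CPM per library (points, y axis, linear) in the 4 groups given by genotype label and day (x axis), with the group mean as a line. With this TMM scaling Hsp90aa1 and Cryab are the 2 genes whose 6 day 39 libraries all lie above the 5 day 0 libraries (with upper-quartile scaling only Cryab), and Hsph1 and Dnajb1 have libraries close to 0 in most groups.

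Promoter windows of 250 bases before to 50 after the start, taken from RefSeq on GRCm38.p6, were found for 6 of the 10 genes, and not for Cryab, Hspa8, Hsp90aa1 and Hsp90ab1. They are shown for 4 of the 6, with the motifs in capitals. The heat-shock element, the binding motif of Hsf1, was searched as GAANNTTC or TTCNNGAA, which read the same on both strands and can overlap each other. It occurs in 15.1% of 32851 windows of this length. The ER stress element was searched on both strands as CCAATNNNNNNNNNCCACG, which occurs in 0.119% of windows. Hspa1a and Hspa1b are shown because the files count them as separate genes although their windows differ at 4 of 300 positions. Hspb1 is shown as the second small heat-shock protein and Hspa5 as the ER member.
Hspb1 promoter, chr5:135887669-135887968, plus strand: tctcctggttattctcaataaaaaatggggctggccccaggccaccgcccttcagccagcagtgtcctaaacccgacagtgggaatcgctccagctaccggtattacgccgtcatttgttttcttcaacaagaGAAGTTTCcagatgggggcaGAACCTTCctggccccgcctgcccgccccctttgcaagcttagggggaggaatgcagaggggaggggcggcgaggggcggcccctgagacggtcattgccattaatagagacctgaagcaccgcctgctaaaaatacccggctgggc
Hspa1a promoter, chr17:34972107-34972406, minus strand: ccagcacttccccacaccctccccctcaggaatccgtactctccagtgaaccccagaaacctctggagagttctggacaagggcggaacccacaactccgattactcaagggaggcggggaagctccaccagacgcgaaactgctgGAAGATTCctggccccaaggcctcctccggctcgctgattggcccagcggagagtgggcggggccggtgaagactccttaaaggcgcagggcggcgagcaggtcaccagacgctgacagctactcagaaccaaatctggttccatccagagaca
Hspa1b promoter, chr17:34959189-34959488, minus strand: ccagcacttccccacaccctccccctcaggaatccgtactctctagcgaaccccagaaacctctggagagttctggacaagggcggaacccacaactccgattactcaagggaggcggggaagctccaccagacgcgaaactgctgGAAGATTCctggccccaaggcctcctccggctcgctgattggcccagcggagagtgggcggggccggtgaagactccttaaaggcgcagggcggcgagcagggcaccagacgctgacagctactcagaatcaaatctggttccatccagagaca
Hspa5 promoter, chr2:34771840-34772139, plus strand: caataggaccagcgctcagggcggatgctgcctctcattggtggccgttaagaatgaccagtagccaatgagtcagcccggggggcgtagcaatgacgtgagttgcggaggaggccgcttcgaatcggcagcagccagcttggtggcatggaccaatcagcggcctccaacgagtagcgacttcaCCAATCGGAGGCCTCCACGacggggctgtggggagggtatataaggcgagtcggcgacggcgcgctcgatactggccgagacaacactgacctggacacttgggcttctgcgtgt
The Hspb1 window (chromosome 5, plus strand) holds 2 heat-shock elements, which begin 117 and 97 bases before the start. The Hspa1a and Hspa1b windows (chromosome 17, minus strand) hold 1 each, and both begin 104 bases before the start. The Hspa5 window (chromosome 2, plus strand) holds no heat-shock element by these letters and 1 ER stress element. Both Hsph1 windows hold 3 heat-shock elements, a number reached by 0.256% of windows, and the Dnajb1 windows hold none. A match describes letters in a window and is not evidence of binding, and these windows were not assayed here.

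Cryab, the gene of αB-crystallin, was abundant in every day 39 library and close to 0 in all but 1 of the day 0 libraries. Both WT libraries of day 0 had 0 Cryab counts, and those of day 39 had 1420, 1432 and 5499. The KO libraries held 5, 1866 and 2 counts at day 0, then 5376, 4559 and 8662 at day 39. KO day 0 replicate 2 was thus the only day 0 library with more than 10 counts, and its 239.9 CPM lay just under the lowest day 39 library, WT day 39 replicate 2 at 263 CPM. The group means, from high to low, were 1596 CPM ± 817 (SD, n = 3) in KO at day 39, 633 ± 502 (n = 3) in WT at day 39, 80.3 ± 138 (n = 3) in KO at day 0 and 0 (n = 2) in WT at day 0. In WT day 0, 3 counts would have been 0.536 and 0.707 CPM.

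In the KO libraries, which did not enter the choice of Cryab, the mean was 19.9-fold higher at day 39 and the libraries did not overlap. The log2 fold change was 4.31 ± 1.71 (SE), with an unadjusted p of 0.0118 that did not pass after adjustment over all tested genes (edgeR quasi-likelihood test, adjusted p = 0.273). Without KO day 0 replicate 2, the day 0 library with most of the counts, the log2 fold change was 11.64 and the adjusted p 0.0237, the lowest of 23 alternatives, which reached 0.789. Cryab passed the filter on low counts through the day 39 libraries, where it is high, so these p-values are given beside the counts and nothing further is read from them. Between the genotype labels at day 39, Cryab overlapped, with a mean 2.52-fold higher in KO, given with no test because the WT libraries entered its selection. At day 0 the mean in KO was at least 129-fold above the mean floor of the WT libraries (3 counts per library), but KO replicates 1 and 3 had 5 and 2 counts. That contrast shares the WT day 0 libraries with the one on which Cryab was chosen, so it is a description, with no test, and it rests on KO day 0 replicate 2.

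Marker genes of other cell types were read beside Cryab. The 12 epithelial markers summed to 74.7 to 1776 CPM at day 0 and 1841 to 11127 at day 39, so their sum also separated the days. In the edgeR mean of both genotype labels 11 of the 12 had a higher level at day 39, against 59.8% of all tested genes, and 0 passed (smallest adjusted p 0.0527). An unadjusted p under 0.05 (edgeR) was found for 6 of the 12, and for 1340 of the 6987 tested genes. The 3 highest in CPM were Car1, Muc2 and Krt19. Of the single epithelial genes, 1 of 12, Phgr1, did not overlap between the days. The part of epithelial RNA in the Cryab difference was not tested.

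The 14 skeletal muscle markers, led by Myh4, Acta1 and Tnnt3, ordered the libraries differently. Their sum was highest in KO day 0 replicates 2 and 3 (27341 and 24500 CPM), against 2862 to 16542 CPM in the other libraries. Replicate 2 had 1866 Cryab counts and replicate 3 had 2. Tnnc2 and Pvalb, genes of fast muscle fibres, were the muscle markers that passed, both lower at day 39 in KO and in the mean of both labels and lower in KO than in WT at day 39. Without KO day 0 replicate 2, 0 of all tested genes passed between the labels at day 39. Over the 11 libraries, which differ in depth and day, the Spearman rho of Cryab CPM was -0.141 with the muscle sum and 0.779 with the epithelial sum, given as a description. The plot of Cryab against marker sums shows each library. The part of muscle RNA in the Cryab values was not tested. Fewer cells of a type and less RNA per cell cannot be told apart in these bulk libraries.

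**Figure D2:**
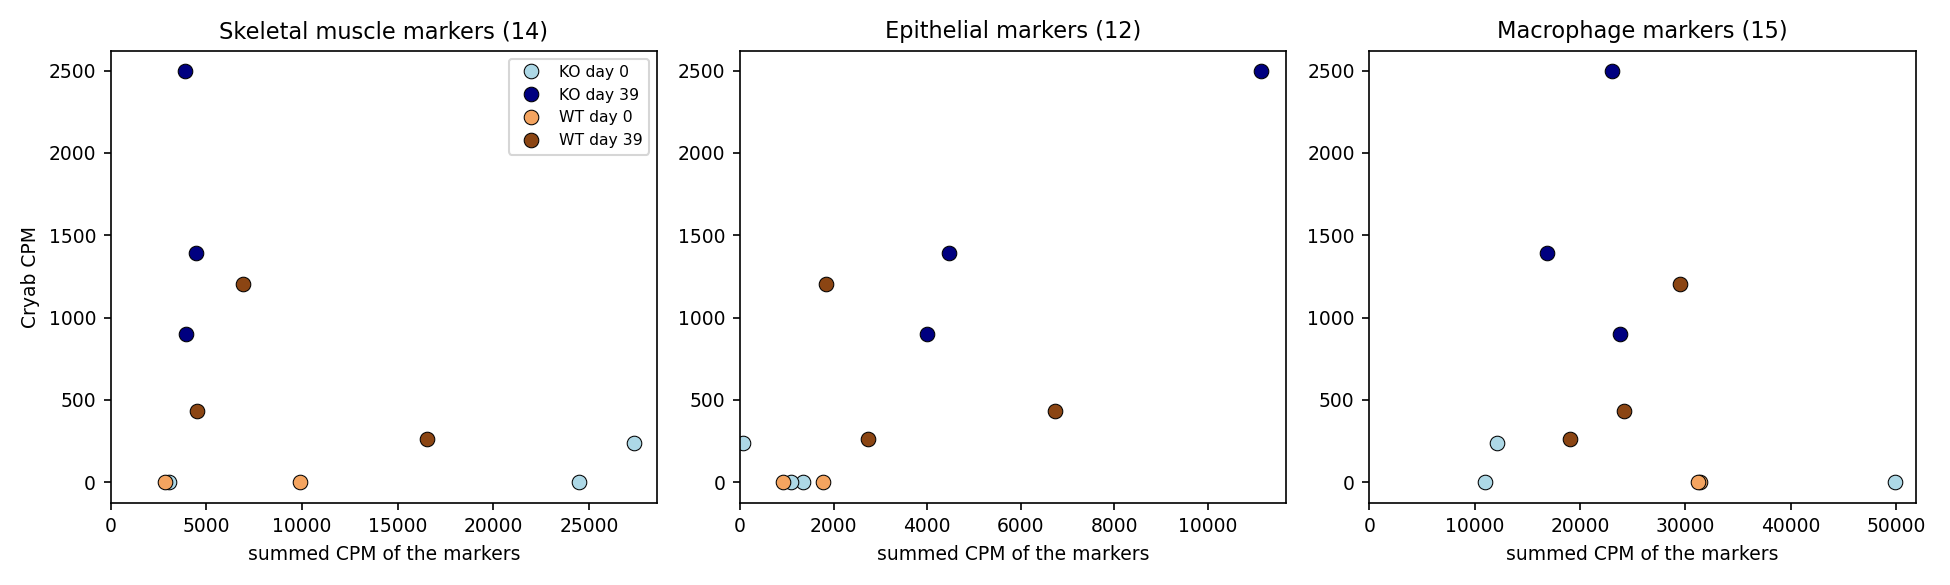
Each point is a library, with Cryab CPM on the y axis and the summed CPM of 14 skeletal muscle, 12 epithelial or 15 macrophage markers on the x axis (linear axes), coloured by genotype label and day. The 2 libraries with the highest muscle sums are from KO day 0 and hold 239.9 and 0.131 CPM of Cryab.

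The other marker sums given here did not separate the days. Smooth muscle markers (Acta2, Des and Myl9 highest) summed to 19.1 to 1492 CPM at day 0 and 137 to 1341 at day 39. Acta2 by itself, the actin of smooth muscle and myofibroblasts, separated the days as Cryab did, with at most 28.7 CPM at day 0 and at least 92.0 at day 39, while Des had 1348 CPM in WT day 0 replicate 2. In the edgeR mean of both labels over time 6 of the 8 smooth muscle genes tested were higher at day 39, against 59.8% of all tested genes. Their median log2 fold change was 2.64, against 0.76. Of the 8, 0 passed and 1 had an unadjusted p under 0.05, where 1340 of the 6987 tested genes had one (edgeR). The part of these cells in the Cryab difference was not tested. Fibroblast markers (Col1a1, Col1a2, Col3a1) summed to 3035 to 20995 CPM at day 0 and 5408 to 11089.5 at day 39. Macrophage markers, with H2-Aa, H2-Ab1 and C1qa highest, summed to 11001 to 49911 CPM at day 0 and 16886 to 29530.5 at day 39. The glial genes Gfap, Cdh19 and Gfra3 had 0 counts in all 11 libraries, although S100b was detected in some. Endothelial (Pecam1, Egfl7) and neutrophil (S100a8) markers reached 311 and 236 CPM in the highest library, and B and T cell markers 1.03 CPM.

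Cryab shares genomic sequence with Hspb2 and 2310030G06Rik in the RefSeq annotation, so its count is uncertain, since the authors' counting of shared reads is not given in the sources used here. Hspb2, a small heat-shock protein gene that neighbours Cryab, had 237 counts in KO day 0 replicate 3 and 0 in the other 10 libraries. The library with Hspb2 counts was therefore one with 2 Cryab counts. The genes whose CPM ranked the 11 libraries most like Cryab were C3 (Spearman rho = 0.956), Impdh1 (0.951) and Thsd1 (0.937). C3, the central complement component, had 0, 1102 and 1681 counts in KO at day 0, 0 and 0 in WT at day 0, 3337, 2793 and 7271 in KO at day 39 and 761, 1890 and 2342 in WT at day 39. Likeness was searched among all tested genes over libraries that differ in depth and day.

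Hspb1, the gene of the small heat-shock protein Hsp27 (Hsp25 in mouse), did not share the Cryab pattern. It had 2711, 21941 and 25524 counts in KO at day 0, 610 and 2820 in WT at day 0, 2194, 3410 and 2087 in KO at day 39 and 2292, 2039 and 1478 in WT at day 39. KO day 0 replicates 2 and 3 were the highest of all libraries, at 2821 and 1671 CPM, and the other 9 lay between 109 and 696 CPM. The same 2 libraries had the highest skeletal muscle sums. They also had the highest fibroblast sums (18805 and 20995 CPM) and the lowest macrophage sums (12105 and 11001 CPM). The part of muscle RNA or of RNA from other cells was not tested. The group means were 1642 CPM ± 1193 (SD, n = 3) in KO at day 0, 614 ± 54.4 (n = 3) in KO at day 39, 465 ± 202 (n = 3) in WT at day 39 and 387 ± 393 (n = 2) in WT at day 0, and each group overlapped its neighbour in this order.

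The Hspb1 log2 fold change over time was -0.58 ± 0.98 (SE) in the mean of both labels (edgeR adjusted p = 0.838) and -1.42 ± 1.33 (SE) in KO (edgeR adjusted p = 0.615). With KO day 0 replicates 2 and 3 left out together, an alternative chosen after seeing the data, both values turned positive, at 0.28 and 0.43. The mean value also turned positive, at 0.31, without WT day 0 replicate 2. KO exceeded WT at day 0 by a log2 ratio of 2.09 ± 1.59 (SE; adjusted p = 0.457, edgeR), and this became -0.31 under upper-quartile scaling. No contrast of Hspb1 passed.

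The stress-inducible Hsp70 genes Hspa1a and Hspa1b lie side by side on chromosome 17 and encode nearly the same protein. Hspa1a had 7435, 396 and 4175 counts in KO at day 0, 4386 and 4114 in WT at day 0, 9834, 7136 and 8033 in KO at day 39 and 5117, 5774 and 3102 in WT at day 39. The KO libraries separated by day, from 50.9 to 1195 CPM at day 0 and from 1410.2 to 2543 at day 39, though not with upper-quartile scaling, and the WT libraries overlapped. The mean in KO was 4.13-fold higher at day 39, a log2 ratio of 2.04 ± 1.14 (SE; adjusted p = 0.297, edgeR), which was 3.70 without KO day 0 replicate 1 and 1.44 without replicate 2. In WT the ratio of means was 1.25. The difference between the labels in the change over time was 1.72 ± 1.64 on the log2 scale (SE; adjusted p = 0.653, edgeR) and did not pass. Without KO day 0 replicate 1 that difference was 3.37, and without replicate 2 it was 1.24.

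Hspa1b had 6213, 1 and 1714 counts in KO at day 0, 998 and 955 in WT at day 0, 6425, 12293 and 1782 in KO at day 39 and 6151, 8357 and 7364 in WT at day 39. Here the WT libraries separated by day, from 178 and 225 CPM to between 1537 and 1867, and the KO libraries overlapped. The WT mean was 8.29-fold higher at day 39, a log2 ratio of 3.05 ± 1.5 (SE) with an unadjusted p of 0.0417 (edgeR adjusted p = 0.414). In the KO libraries it was 2.05 ± 1.22 (SE; adjusted p = 0.326, edgeR), with 4.78 when KO day 0 replicate 1 was left out and 1.4 when replicate 2 was. The mean of both labels was 2.55 ± 0.97 (SE), the largest relative to its SE among the 9 genes read from the fit, with an unadjusted p of 0.00844 and an edgeR adjusted p of 0.192. An unadjusted p under 0.05 (edgeR) was found for 467 of the 6987 tested genes in WT and for 1340 in that mean.

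Hspa1b passed in that mean only when KO day 0 replicate 1 was left out (log2 fold change 3.92, adjusted p = 0.0213). That library held 6213 of the Hspa1b counts at day 0, and over all 22 alternatives the adjusted p ran from 0.0213 to 0.703. Hspa1a over the same contrast was 1.19 ± 0.85 (SE; adjusted p = 0.448, edgeR), with 2.01 and 0.81 when KO day 0 replicate 1 or 2 was left out and 0.079 under upper-quartile scaling. Between the labels at day 39, Hspa1a overlapped with TMM scaling or DESeq2 size factors. It did not overlap, and was higher in KO, with library size only, upper-quartile scaling or the raw library total. Its log2 ratio was 0.93 ± 1.11 (SE; adjusted p = 0.844, edgeR), and Hspa1b had a ratio of means of 0.918.

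The 2 genes share much of their sequence, so the split of their counts is uncertain for reads in shared stretches, and the sum was also taken. Of the 50-base windows of the Hspa1a transcript in GENCODE M21, 1716 of 2918 (58.8%) occur in the Hspa1b transcript, but 0 of 451 in its last 500 bases, where 3′ libraries have their reads. The summed level was 2193, 51.0 and 385 CPM in KO at day 0, 962 and 1194 in WT at day 0, 4205, 3839 and 2828 in KO at day 39 and 3421, 2599 and 2292 in WT at day 39. For the sum, all day 39 libraries lay above all day 0 libraries, with KO day 0 replicate 1 (2193 CPM) just under WT day 39 replicate 3 (2292 CPM). The mean was 957 CPM ± 826 (SD, n = 5) at day 0 and 3197 ± 747 (n = 6) at day 39. The sum was taken after both genes had been seen, and no test is given for it.

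The split between the copies varied by library. Hspa1b made up 54.6% to 70.4% of the pair in WT at day 39 and 18.5% and 18.8% in WT at day 0. In KO it ran from 0.252% to 45.5% at day 0 and from 18.2% to 63.3% at day 39. The shares in WT did not overlap between days and those in KO did. Whether the authors' counting assigned shared reads to 1 copy is not given in the sources used here.

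**Figure D3:**
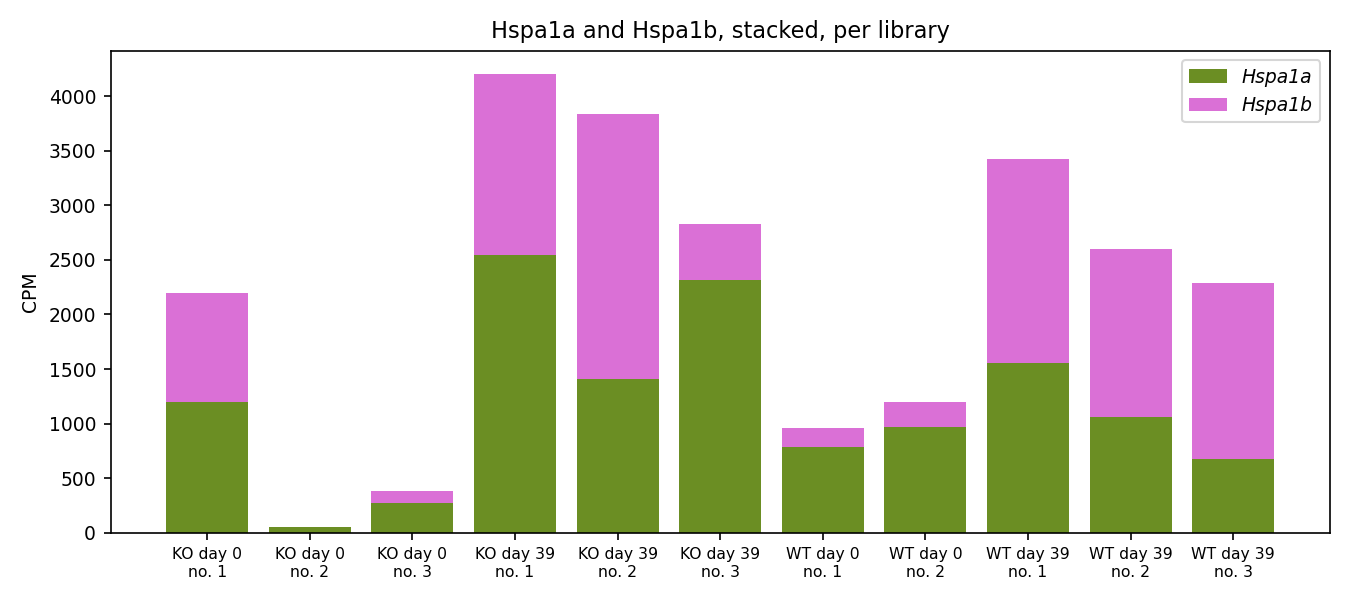
Stacked bars give Hspa1a and Hspa1b CPM (y axis, from 0) in each of the 11 libraries (x axis, by genotype label, day and replicate number). The day 39 bars reach 2292 to 4205 CPM and the day 0 bars 51.0 to 2193 CPM, while the share of Hspa1b changes from bar to bar.

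Genes that ranked the libraries most like Hspa1a were Agpat4 (Spearman rho = 0.934), Hba-a2 (0.921) and Cdkn1a (0.918) over 11 libraries. Cdkn1a, which encodes the cell cycle inhibitor p21, had 4270 to 5350 counts in KO at day 0, 2465 and 2978 in WT at day 0, 6292 to 8132 in KO at day 39 and 1847 to 3107 in WT at day 39. Agpat4 and Hba-a2 each had several libraries at or under 3 counts, so their ranks include ties.

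Hspa8, the constitutive Hsp70 of the cytosol that also serves clathrin uncoating and chaperone-mediated autophagy, varied within each group. It had 3189, 5321 and 4515 counts in KO at day 0, 550 and 4953 in WT at day 0, 262, 1075 and 2946 in KO at day 39 and 1411, 479 and 2161 in WT at day 39. The range was 98.3 to 1167 CPM at day 0 and 67.8 to 849 at day 39, so the days overlapped. The mean was 551 CPM ± 409 (SD, n = 5) at day 0 and 353 ± 296 (n = 6) at day 39, a log2 ratio of -0.67 ± 1.36 (SE; adjusted p = 0.891, edgeR). Without WT day 0 replicate 2, which held 4953 counts, the value was 0.63. Hspa8 overlaps the small nucleolar RNA genes Snord14c, Snord14d and Snord14e in RefSeq, which makes its count uncertain.

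The genes most like Hspa8 in rank were Setd2 (Spearman rho = 0.879), Ccl9 (0.864) and Daxx (0.858). Ccl9, a chemokine of macrophages, had 1274 to 2974 counts in KO at day 0, 374 and 4053 in WT at day 0, 3 to 878 in KO at day 39 and 1 to 4277 in WT at day 39. As with Hspa8, its 2 WT day 0 libraries stood far apart.

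Hsp90aa1, the inducible cytosolic Hsp90, separated the days in CPM under both labels with TMM scaling, and only in KO with upper-quartile scaling. It had 7646, 6573 and 14943 counts in KO at day 0, 3034 and 4939 in WT at day 0, 8501, 9124 and 9418 in KO at day 39 and 6377, 10890 and 8737 in WT at day 39. In CPM all 6 day 39 libraries (1803 to 2714) lay above all 5 day 0 libraries (542 to 1229). The mean was 2238 CPM ± 457 (SD, n = 3) in KO at day 39, 1951 ± 46.5 (n = 3) in WT at day 39, 1017 ± 195 (n = 3) in KO at day 0 and 853 ± 439.6 (n = 2) in WT at day 0. The 2 groups of a day overlapped and the groups of different days did not.

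The ratio of Hsp90aa1 means between the days was 2.20, with 2.20 in KO and 2.29 in WT. The log2 fold change was 1.14 ± 0.96 (SE; adjusted p = 0.543, edgeR) in KO and 1.19 ± 1.10 (SE; adjusted p = 0.576, edgeR) in WT. The WT value was 0.55 without WT day 0 replicate 1 and 1.92 without replicate 2, and the KO value stayed between 0.95 and 1.30 with 1 library left out. In the mean of both it was 1.17 ± 0.73 (SE; adjusted p = 0.372, edgeR), so the difference did not pass although the libraries separated. The fit gives Hsp90aa1 a biological coefficient of variation of 1.48, near the low end of the 1.44 to 2.15 of the 10 genes and under the median of 2.78 of all tested genes. Under upper-quartile scaling the WT value turned to -0.81.

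Hsp90ab1, the constitutive cytosolic Hsp90, was high in 10 of the 11 libraries. It had 13655, 24778 and 38387 counts in KO at day 0, 274 and 10082 in WT at day 0, 10888, 16550 and 10118 in KO at day 39 and 12047, 11285 and 10516 in WT at day 39. WT day 0 replicate 1 had 49.0 CPM and the other 10 libraries 2076 to 3657, with days and labels overlapping under TMM scaling. With library size only or the raw library total, the WT day 0 libraries lay below those of WT at day 39 and of KO at day 0. The log2 fold change over time was 0.67 ± 0.59 (SE; adjusted p = 0.568, edgeR) in the mean of both labels, and -0.56 under upper-quartile scaling. Without WT day 0 replicate 1 it was 0.020, and without replicate 2 it was 2.95. At day 0, KO exceeded WT by 1.12 ± 0.90 (SE; adjusted p = 0.487, edgeR), which was 0.0079 without WT day 0 replicate 1, 5.87 without replicate 2 and -1.30 under upper-quartile scaling.

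The genes most like Hsp90ab1 in rank were Kidins220 (Spearman rho = 0.935), Ahcyl2 (0.912) and Gm4262 (0.887). Each had 0 counts in KO day 0 replicate 1 and in WT day 0 replicate 1. Kidins220 had 2406 and 2177 counts in KO day 0 replicates 2 and 3, and 0 in replicate 1, where Hsp90ab1 had 13655.

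The co-chaperone genes were detected in part of the libraries. Hsph1, which encodes the Hsp110 exchange factor of Hsp70, had 1468, 0 and 0 counts in KO at day 0, 2243 and 0 in WT at day 0, 2, 1077 and 1 in KO at day 39 and 2690, 826 and 2 in WT at day 39. Each group thus held at least 1 library with 1077 counts or more and at least 1 with 2 or fewer. The mean was 127 CPM ± 184 (SD, n = 5) at day 0 and 197 ± 317 (n = 6) at day 39, with a log2 ratio of 0.27 ± 2.27 (SE; adjusted p = 1, edgeR). That sign turned in 7 of 22 alternatives, and without KO day 39 replicate 2 the value was -3.43.

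Dnajb1, the J-domain partner of the inducible Hsp70 proteins, had 102, 8 and 1195 counts in KO at day 0, 712 and 2 in WT at day 0, 851, 1 and 3152 in KO at day 39 and 1655, 2446 and 1732 in WT at day 39. All 3 WT day 39 libraries lay above both WT day 0 libraries, at 379 to 502 CPM against 0.471 and 127. In KO the days overlapped, because KO day 39 replicate 2 had 1 count. The mean was 44.7 CPM ± 56.1 (SD, n = 5) at day 0 and 410.0 ± 304 (n = 6) at day 39, 9.18-fold higher. The log2 fold change was 3.18 ± 2.17 (SE; adjusted p = 0.416, edgeR), the largest after Cryab and also with a large error. With 1 library left out it ran from 2.29 (without KO day 39 replicate 3) to 6.48 (without WT day 0 replicate 1).

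Hspa5, the Hsp70 of the ER known as BiP, had at least 2410 counts in every library. The values were 8340, 10346 and 12999 counts in KO at day 0, 3684 and 3456 in WT at day 0, 2410, 9977 and 3500 in KO at day 39 and 3420, 4461 and 13516 in WT at day 39. WT day 39 replicate 3 was the highest library at 2960.2 CPM, and KO day 39 replicate 1 the lowest at 623 CPM. The mean was 999 CPM ± 316 (SD, n = 5) at day 0 and 1404 ± 893 (n = 6) at day 39, with overlap. The log2 fold change was 0.58 ± 0.81 (SE; adjusted p = 0.778, edgeR), and -0.41 under upper-quartile scaling. Without WT day 39 replicate 3 it was 0.18. The WT libraries did not overlap between days, but WT day 39 replicate 2 (820.5 CPM) stood just over WT day 0 replicate 2 (814 CPM), and the groups overlapped with DESeq2 size factors or upper-quartile scaling. Hspa5 overlaps Rabepk in RefSeq, so its count is uncertain.

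**Figure D4:**
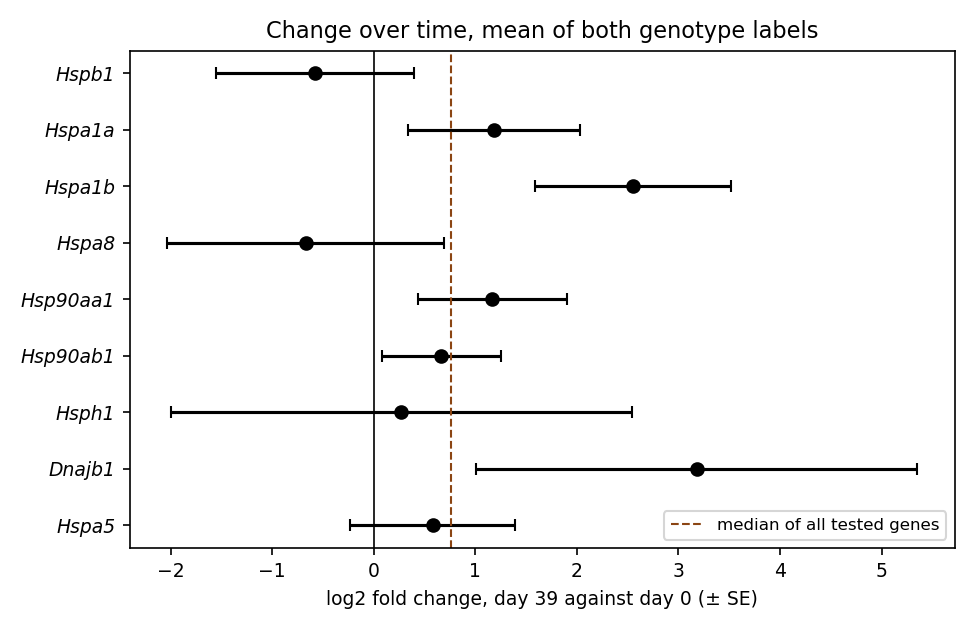
Points give the log2 fold change of 9 chaperone genes between day 39 and day 0 (x axis, mean of both genotype labels) with bars of 1 SE, and the dashed line is the median of all 6987 tested genes (0.76). Hspa1b (2.55) and Dnajb1 (3.18) lie farthest to the right, and none of the 9 genes passed the adjusted threshold. Cryab is left out because it was selected on part of this contrast.

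Read together over time, 8 of the 10 genes had a higher fitted level at day 39 in the mean of both labels, with a median log2 fold change of 0.92, against 59.8% of all tested genes and a median of 0.76, but 5 of 10 with a median of -0.11 under upper-quartile scaling. Of all genes tested, 0.301% passed in this mean, and among the 10 only Cryab did, where it was selected on part of the contrast. The median of all genes lay off 0, and became 0.59 (DESeq2 size factors), 0.55 (no scaling beyond library size) and 0.18 (upper quartile), so a positive value is not by itself a difference from other genes. In KO, 7 of 10 genes were higher with a median of 0.66, against 49.2% and 0, and 0 of 10 passed where 0.157% of all did (edgeR; 0 passed with DESeq2). An unadjusted p under 0.05 was found in KO for 1 of 10, Cryab, and for 1273 of the 6987 tested genes (edgeR). In WT, 9 of 10 were higher with a median of 1.13, against 61.8% and 1.64 (3 of 10 and -0.79 under upper-quartile scaling), and the 1 member that passed was Cryab, on which the choice rests (0.0143% of all). With Cryab at its lower bound, the TMM medians in WT and in the mean of both labels are the same.

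Libraries of the 6 day 39 and 5 day 0 samples did not overlap for Hsp90aa1 and Cryab, 2 of 10 genes, where 1.76% of all tested genes did not overlap (with upper-quartile scaling, Cryab alone). In KO the days did not overlap for Hsp90aa1, Hspa1a and Cryab (3 of 10, against 11.3% of all), and all 3 were higher at day 39 (with upper-quartile scaling 2 of 10: Hsp90aa1 and Cryab). In WT they did not overlap for Hsp90aa1, Hspa1b, Hspa5, Dnajb1 and Cryab (5 of 10, against 17.4%), again all higher at day 39 (with upper-quartile scaling 3 of 10: Hspa1b, Dnajb1 and Cryab). With library size only or the raw library total Hsp90ab1 joined these in WT (6 of 10, against 18.1% and 18.2% of all). The KO count was 6 without KO day 0 replicate 1 (23.1% of all genes) and 5 without KO day 39 replicate 3 (16.5%). With a library left out the WT count ran from 5 to 7 (24.4% to 39.5% of all genes). Cryab is in the WT count, and in that over all libraries, by selection. The contrasts in KO and WT share no library, but both use dispersions estimated over all 11.

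Between the genotype labels 0 of the 10 genes passed with edgeR at day 0 (0.0143% of all genes tested) and 0 at day 39 (0.0286%). Cryab, whose WT values entered its selection, is not read in either. None of the other 9 genes had an unadjusted p under 0.05 or passed with DESeq2 at either day. Of the 6987 tested genes, 558 had an unadjusted p under 0.05 at day 0 and 509 at day 39 (edgeR). At day 39 no gene of the 10 separated the labels with TMM scaling (7.4% of all genes did). Hspa1a did with library size only, upper-quartile scaling or the raw library total (7.5% to 7.54% of all genes). At day 0 Hspa5 and Cryab did (12.0% of all genes), both higher in KO (Cryab alone with DESeq2 size factors or upper-quartile scaling). Hsp90ab1 joined them with library size only or the raw library total (12.1% of all genes). The day 39 count became 3 without KO day 39 replicate 2 (16.2% of all genes) and 3 without WT day 39 replicate 1 (15.4%), and 1 without KO day 39 replicate 3 (13.9%) or WT day 39 replicate 3 (16.1%). At day 0 it became 6 without KO day 0 replicate 1 (25.2% of all genes), 4 without WT day 0 replicate 1 (31.5%) and 8 without WT day 0 replicate 2 (30.9%). In the difference of the time contrasts 0 of 10 passed with edgeR, as for 0.0% of all genes, and 0 with DESeq2. None of the other 9 genes had an unadjusted p under 0.05 there (edgeR), where 1006 of the 6987 tested genes did. In that difference 3 of 10 were positive against 38.4% of all (median -0.89), but 8 of 10 under upper-quartile scaling (median 1.05).

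The 10 genes did not move as a block across libraries. Of the 45 pairs, 28 had a positive Spearman rho over the 11 libraries, and the median was 0.209. The highest was 0.843 for Cryab and Hsp90aa1, and the lowest -0.468 for Hspa8 and Hsph1. Summed over the 10 genes, CPM was 2946 to 9159 at day 0 and 8826 to 14321 at day 39. The days overlapped in this sum, since KO day 0 replicate 2 (9159) exceeded WT day 39 replicate 2 (8826).

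Other genes of the chaperone system were given as lists, and 0 of their tested genes passed the edgeR threshold in any of the 6 contrasts. In the mean of both labels over time, those with an unadjusted p under 0.05 numbered 0 to 2 per list, where 1340 of the 6987 tested genes had one (edgeR). The counts of genes higher at day 39 in each list below stand beside 59.8% of all tested genes. Among other small heat-shock proteins 3 of 8 were tested: Hspb8, Hspb6 and Hspb7. Hspb6 and Hspb7, which are abundant in muscle, had 5247 and 6448, and 1436 and 935, counts in KO day 0 replicates 2 and 3. Hspb7 had 0 in the other 9 libraries and Hspb6 at most 756. These are the libraries with the highest muscle and fibroblast sums and the most Hspb1, whereas Cryab was at 2 counts in replicate 3.

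Of the other Hsp70, Hsp110 and exchange factor genes 8 of 17 were tested, and 5 of these were higher at day 39 in the mean of both labels. Hspa4 (another Hsp110), Hspa9 (the mitochondrial Hsp70) and Hspa2 had the highest CPM, and each had at least 1 library with 2 or fewer counts although their highest libraries had 3713, 3565 and 7306. Of the other J-domain genes 9 of 16 were tested and 4 were higher. Dnaja1 ran from 0 to 2544 counts, Dnajb6 from 0 to 3878 and Dnajc10, a disulphide reductase of the ER, from 0 to 4102.

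Of the Hsp90 relatives and co-chaperones 13 of 15 were tested, and 3 were higher at day 39. Hsp90b1, the Hsp90 of the ER, had 4 to 7084 counts, Fkbp4 1 to 3943 and St13 0 to 2765. Among the heat-shock transcription factors only Hsbp1, which binds Hsf1, was tested (1 of 5), with 901, 0 and 9510 counts in KO at day 0 and 0 to 313 in WT at day 39. Hsf1 was not among the tested genes.

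The ER list around Hspa5 had 16 of 23 genes tested, 9 of them higher at day 39. Calr, a lectin chaperone, had 1521 to 8321 counts, Hsp90b1 is named above, and Atf4, a transcription factor of the stress response, had 0 to 7159. All 10 chaperonin genes were tested and 5 were higher, with Cct8, Cct7 and Hspd1 highest in CPM and each at 2 or fewer counts in at least 1 library. Unlike the genes named above, the chaperonin gene Tcp1 and Sdf2l1 of the ER list separated the days in CPM with TMM scaling. They had at most 26.6 and 9.88 CPM at day 0 and at least 87.7 and 22.6 at day 39 (1.76% of all tested genes did not overlap). The map of counts sets these genes beside the 10.

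**Figure D5:**
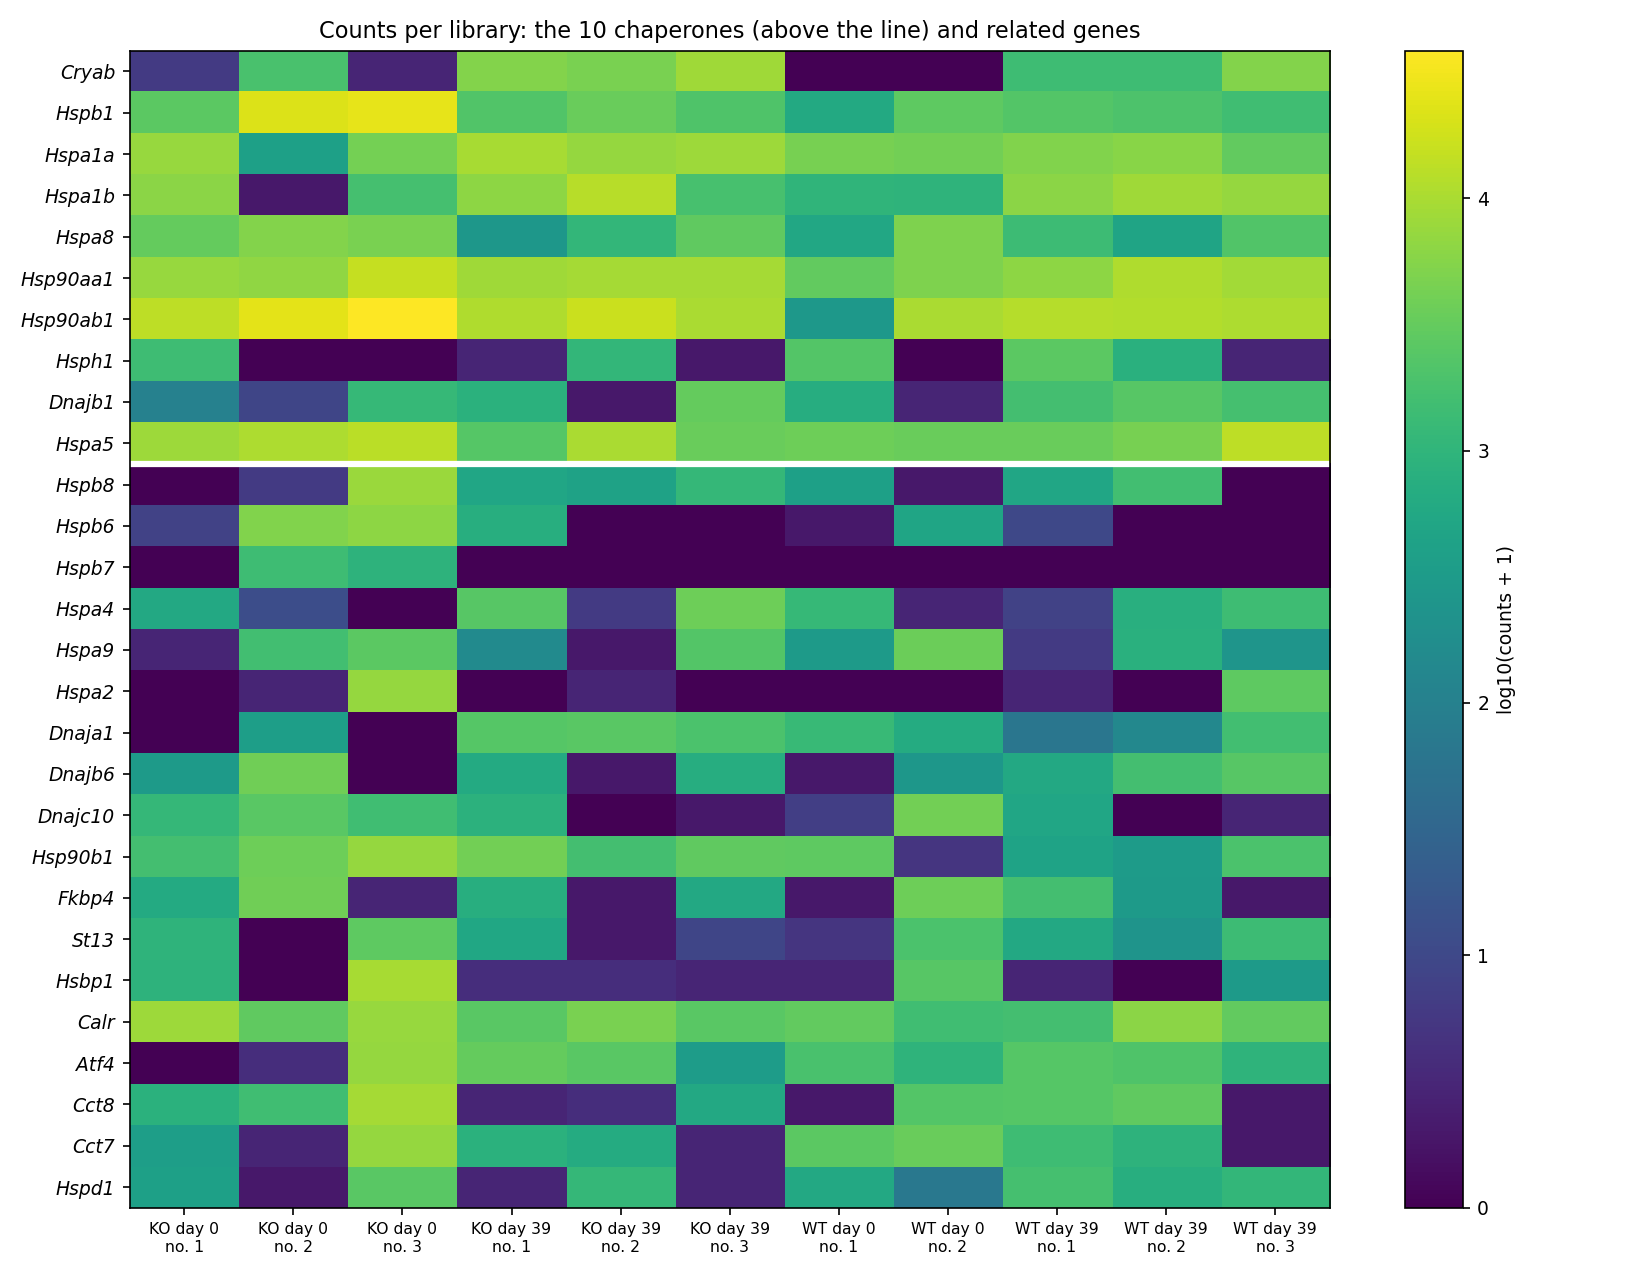
Colour gives log10(counts + 1) of each gene (rows) in each library (columns, by genotype label, day and replicate number), with the 10 chaperones above the white line and the highest genes of each related list below it. Hspb1, Hspa1a, Hspa5, Hspa8, Hsp90aa1 and Hsp90ab1 are detected in all columns, and the genes below the line are more often near 0.

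A list of early stress response genes, which tissue dissociation is known to induce, was also read. Its 14 genes, with Jun, Junb and Fos highest, summed to 5040 to 20357 CPM at day 0 and 10829 to 19198 at day 39. With edgeR 0 passed in the mean of both labels, and 0 had an unadjusted p under 0.05, where 1340 of the 6987 tested genes did. KO day 0 replicates 2 and 3 had the lowest sums (7362 and 5040 CPM) and also the lowest summed Hspa1a and Hspa1b (51.0 and 385 CPM). KO day 0 replicate 1 had the highest sum of these genes (20357 CPM) and the highest day 0 level of the pair (2193 CPM). Macrophage marker sums were likewise lowest in KO day 0 replicates 2 and 3 (12105 and 11001 CPM) and highest in replicate 1 (49911 CPM). WT day 39 replicate 2 had a stress gene sum of 10829 CPM, under both WT day 0 libraries (16330 and 13074 CPM). Its level of the pair was 2599 CPM, against 962 and 1194 CPM in those. The part of handling or of cell composition in the Hspa1a and Hspa1b values was not tested.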

How the data were processed

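Per the labels' protocols, libraries were made from 500 ng of total RNA by the QuantSeq method of Lexogen, whose reads start close to the poly(A) tail. Each deposited file lists 1 library, as counts in whole numbers by gene symbol. The submitters' processing notes name Bowtie2, edgeR and hg19 with no role or version. hg19 is a human build although the samples are mouse, and the annotation, strand setting and use of molecular identifiers are not given in the sources used here. Groups and replicate numbers follow the titles. The file headers give day 35 for libraries titled day 39 and number the WT day 0 library titled 2 as 3.

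The test was run in edgeR 4.0.16 (R 4.3.3): filterByExpr (6987 of 23282 entries kept), TMM scaling, robust dispersions and the quasi-likelihood test with 1 coefficient per group over all 11 libraries. P-values are two-sided, adjusted by Benjamini-Hochberg over all tested genes, with a threshold of 0.05. There were 6 contrasts: genotype labels at each day, days within each label, the mean of the 2 time contrasts and their difference. The SE was taken as the size of a log2 fold change over the root of its F. A floor of 3 counts per library was used for lower bounds, which cover counting error only. The code was tested on simulated counts. Alternatives were other scalings, tests (DESeq2 1.42.0, limma-voom from limma 3.58.1), filters, a replicate block and leaving out each library.

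The genes, lists and tests were chosen with earlier results of these data known. All 10 chaperones are named, up to 3 genes per other list by mean CPM plus any that passed, and the 3 tested genes most like Cryab, Hspa1a, Hspa8 and Hsp90ab1 by Spearman rho (SciPy 1.17.1). Names not covered by this rule were chosen after their values were seen.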

Additional observations from a re-analysis of the deposited data

How the results depend on the processing

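Of 160 mean CPM values recomputed under other scalings, 139 stayed within 1 SD. The number of chaperones called between days in WT, 1 (Cryab, the gene selected on it), was 0 with upper quartile, library size only or DESeq2 size factors, without a filter or with one at a mean of 10 counts, in a fit to the compared groups alone, after setting counts up to 10 to 0, and with the replicate block, and 0 to 1 when a library was left out. The mean of both labels gave 1, but 0 with upper quartile or no filter and 0 to 2 when a library was left out. The genotype contrast at day 0 gave 0, but 1 with DESeq2 and 0 to 1 when a library was left out. KO over time and the difference of the time contrasts each gave 0, also with DESeq2, and 0 to 1 when a library was left out. The 1 in each of these is Cryab, whose selection used the WT day 0 libraries in all but the KO contrast, so no test of it is read there. Chaperones that did not overlap numbered 1 between days with upper quartile (2 with TMM), 2 between days in KO (3) and 3 between days in WT (5). Between days in WT they numbered 4 with DESeq2 size factors, and 6 with library size only or the raw library total. Between labels at day 0 they numbered 1 with DESeq2 size factors or upper quartile, and 3 with library size only or the raw library total (2 with TMM). At day 39 they numbered 1, Hspa1a, with library size only, upper quartile or the raw library total (0 with TMM). Over these scalings the shares of all genes were 1.55% to 1.85% between days, 17.4% to 18.3% in WT, 11.3% to 11.4% in KO, 12.0% to 13.4% between labels at day 0 and 7.4% to 7.54% at day 39. With a library left out the counts ran from 3 to 6 in KO over time (16.5% to 23.1% of all genes), 2 to 8 between labels at day 0 (19.7% to 31.5%) and 0 to 3 at day 39 (13.9% to 16.2%). In WT over time they ran from 5 to 7 (24.4% to 39.5%), where leaving out a WT day 0 library leaves 1 in that group. Upper quartile reversed Hsp90ab1 (-1.30) and Hspb1 (-0.31) between labels at day 0, Hsp90aa1 over time in WT (-0.81), and Hsp90ab1 (-0.56), Hspa5 (-0.41) and Hsph1 (-0.30) in the mean over time. Library size only gave Hsph1 -0.013. Without KO day 0 replicates 2 and 3, Hspb1 was 0.43 in KO over time and 0.28 in the mean, and Hsph1 -0.71. With a library left out, the mean over time ran from -1.13 to 0.31 for Hspb1, -3.43 to 6.82 for Hsph1 and -1.38 to 0.63 for Hspa8. The cause of these shifts was not tested. Genes called over all tested ranged from 0 to 1241 over the alternatives, with DESeq2 calling the most in every contrast. Deviations of same-numbered libraries of different groups had a mean correlation of 0.0084 over 15 pairs. Deviations from means of 2 or 3 libraries cancel within a group, and a WT day 0 library is numbered differently in its title and header. This check therefore cannot show that pairing is absent. The numbers were not taken as pairs, and the replicate block left 1 chaperone called in the mean over time. The 10 chaperones had biological coefficients of variation of 1.44 to 2.15, against a common value of 2.48. The size of difference that this depth and spread could show was not tested.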
